A study of Rattus norvegicus with 4 samples.

Results

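The 10 genes described here, Fcrla, Pax5, Lck, Camp, Cxcr1, S100a8, Vwf, Pecam1, Cdh5 and Epor, are best known from B cells, T cells, neutrophils, endothelial cells or erythroid cells. They were measured in NR8383, an established line of rat alveolar macrophages that goes back to a lung lavage. The genes were chosen from their processed signals and detection flags on these same arrays, as lineage genes with signal in a macrophage line, so their detection is a description and carries no test. They are 10 of 16581 genes that could be named on the array, and all 10 had at least 1 probe. The samples were 4 NR8383 cultures held in 1 group. All had received NRCWE055, pristine carbon nanotubes of the single-walled kind, at 11 cm2/cm2 for 4 h, and were at 20 passages. The study counts them as biological replicates. For replicates 2, 3 and 4 the source name carries another nanotube number than the title, and the title was followed. The design also has unexposed cultures, which were not analysed here, and none of the values can therefore be read as an effect of exposure.

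Lineage genes of blood and vessel cells are often read as marks of one cell type, but several of them are also used by myeloid cells. PAX5 holds B cells to their lineage and represses genes of other lineages, LCK is the kinase that starts signalling from the T cell receptor, and cathelicidin, CXCR1 and S100A8 serve the antimicrobial and migratory work of neutrophils. VWF, PECAM1 and VE-cadherin are products of endothelium, of which PECAM1 is also carried by leukocytes and platelets and VWF by megakaryocytes. The erythropoietin receptor passes the survival signal of red cell precursors through the kinase JAK2 and the transcription factor STAT5.

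The arrays differed in brightness. Over the probes detected on every array, the 75th percentile of the signal was 1756 on replicate 1, 2631 on replicate 2, 2861 on replicate 3 and 1873 on replicate 4. Levels are therefore given as log2 of the processed signal relative to that percentile on the same array, as mean ± SD over 4 arrays (n = 4), and because probes bind with different strength a level is not compared between genes. Detection on an array means that the scanning software marked the probe as well above background. Of the markers of the labelled cell type, 16 of 19 measured macrophage genes were detected on all arrays (84.2%, beside 52.4% of all named genes). The other 3, Adgre1, Marco and Cd163, named after their values were seen, were not well above background on any of the arrays. Among the detected macrophage genes, Cd68, a lysosomal glycoprotein of macrophages, was at 3.07 ± 0.10 and the myeloid transcription factor gene Spi1 at 0.82 ± 0.07. Csf1r, the receptor of macrophage colony-stimulating factor, was at -1.54 ± 0.16 and Pparg, a nuclear receptor of alveolar macrophages, at 3.32 ± 0.12. Lyz2, the lysozyme of myeloid cells, was at 5.17 ± 0.19, and the mannose receptor gene Mrc1 was at -2.55 ± 0.22.

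All 10 genes, and all 11 of their probes, were well above background on all 4 arrays. The same held for 52.4% of all named genes, and since the 10 were picked for being detected, nothing is read from that contrast. All 10 also carried the software's looser flag on every array, as did 61.3% of named genes, and exceeded the highest negative control spot of every array, as did 56.9%. None of their spots was saturated or marked as an outlier. Bulk RNA does not part a low level in every cell from a higher level in few cells. The margin over background differed widely between probes. Cdh5 lay nearest to the limit, at 4.50 to 8.38 times the highest negative control spot of the same array, followed by S100a8 at 6.66 to 12.7 times, the dimmer Vwf probe at 8.26 to 16.0 times and Lck at 10.9 to 20.3 times. Pax5 was at 29.7 to 40.1 times and Cxcr1 at 38.6 to 75.3 times that spot. Fcrla exceeded it by 469 to 846 times and the brighter Vwf probe by 785 to 1142 times. The scanning software's own error estimate was 10.0% to 14.0% of the signal, the largest being that of Cdh5 on replicate 1.

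**Figure D1:**
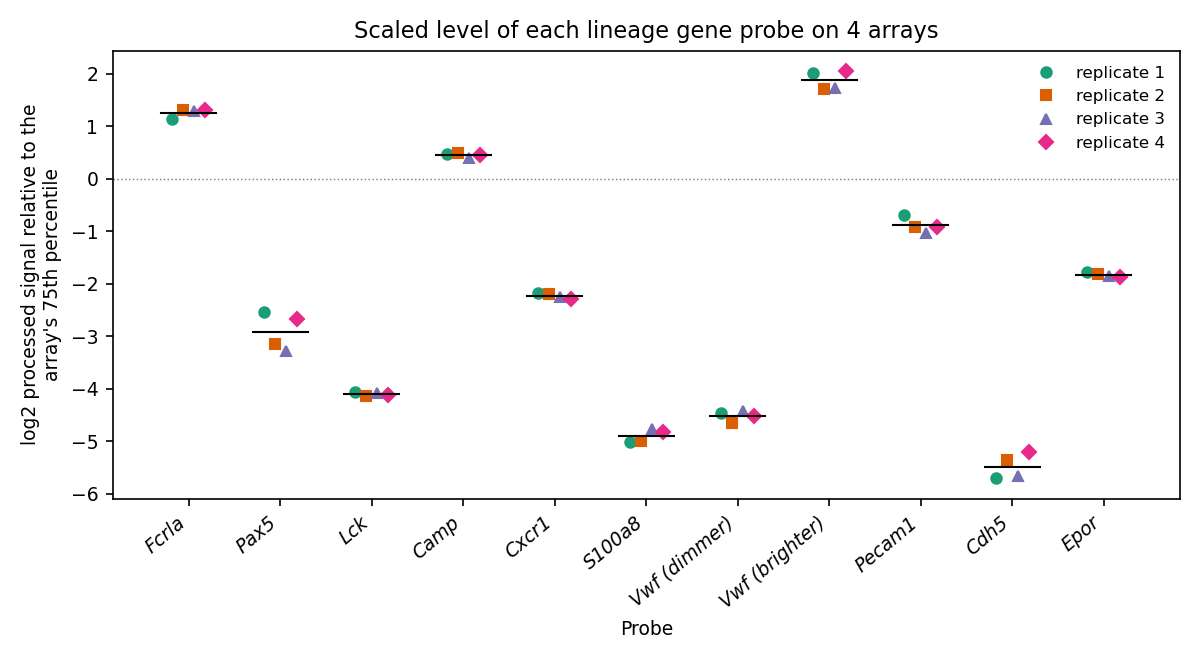
Scaled level of each of the 11 probes (x axis) as log2 processed signal relative to the array's 75th percentile (y axis); each symbol is 1 array and the bar is the mean of 4. The arrays nearly coincide for Lck, Camp, Cxcr1 and Epor, whereas Pax5 splits by array, from -3.28 on replicate 3 to -2.55 on replicate 1.

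Of the B cell genes, Fcrla (NM_001100682) encodes an Fc receptor-like protein that stays inside B cells and binds immunoglobulin there. Its probe was printed 10 times per array, and its processed signal was 3844 on replicate 1, 6487 on replicate 2, 7015 on replicate 3 and 4625 on replicate 4. After scaling, replicate 1 was lowest at 1.13 and the other arrays lay close together, at 1.30, 1.29 and 1.30, giving a mean of 1.26 ± 0.08. The repeated spots show how far a single spot can be trusted. On replicate 1 they ran from 3188 to 4254 with an SD of 0.15 on the log2 scale, and on the others the SD was 0.08. For comparison, the median SD among 10 spots over the 1038 detected probes printed that often was 0.09 on replicate 1. Replicate 1 remained lowest by its median spot, at 1.19 against 1.34, 1.30 and 1.31 on replicates 2, 3 and 4, although spots of the arrays overlapped. Of the 10 spots, 2 were below their array's mean on every array and 5 were above it on every array. The neighbouring and related gene Fcrlb, named after its value was seen, was also detected on all arrays, at -4.40 ± 0.15 over its pair of probes. No probe sequence was at hand, so binding of one gene's transcript to the other's probe was not tested.

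**Figure D2:**
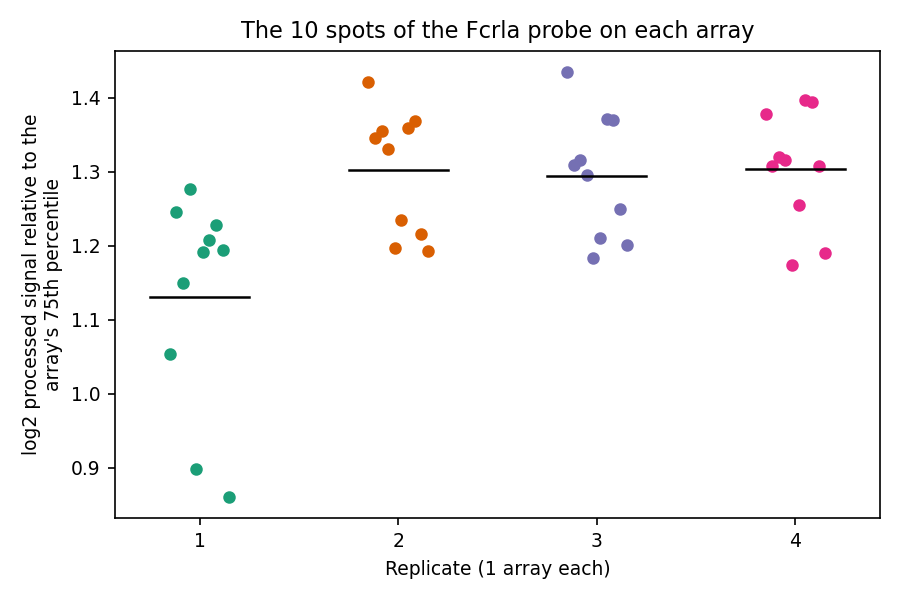
The 10 Fcrla spots of each array (points) with their mean (bar), as log2 processed signal relative to the array's 75th percentile; the y axis does not start at 0. The spots of replicate 1 reach down to 0.86, and no spot of the other arrays is below 1.17.

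Pax5 (NM_001109261) was the exception among the 10 genes in how its signal behaved. Its processed signal was 300.3 on replicate 1, 297.3 on replicate 2, 295.4 on replicate 3 and 292.7 on replicate 4. The 4 arrays thus agreed within 1.03-fold before any scaling, while the median detected probe ranged 1.68-fold between the dimmest and brightest array. Of 17807 detected probes, 1 other had as narrow a range. The remaining 10 probes of the lineage genes followed the brightness of the arrays, with signals on replicates 2 and 3 that were 1.22 to 1.60 times those on replicates 1 and 4, against 0.9996 times for Pax5 and a median of 1.503 times over all detected probes. Because its signal did not follow, scaling moved Pax5 apart. Its level was -2.55 on replicate 1 and -2.68 on replicate 4, but -3.15 on replicate 2 and -3.28 on replicate 3, so the brighter pair of arrays did not overlap the dimmer pair. The mean of -2.91 ± 0.35 therefore has the largest SD of the 10 genes, and 4.64% of detected probes had an SD at least as large. Among the 2119 detected probes within 0.5 of its level, 1.98% had such an SD and the median signal ratio between those pairs of arrays was 1.51. In the raw median signal of the spot, before the software's processing, Pax5 was less flat, with a range of 1.098-fold that 0.882% of detected probes matched or undercut. Why its signal did not follow the brightness of the arrays, and what part the spot itself plays in that, was not tested.

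**Figure D3:**
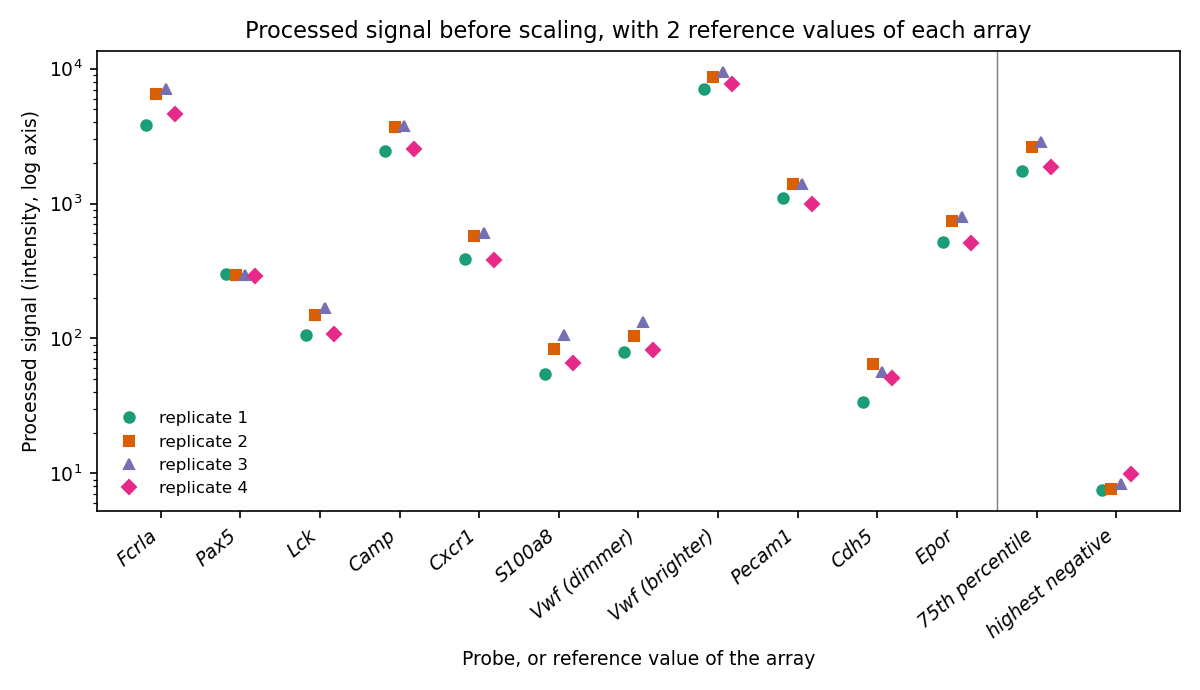
Processed signal before scaling (y axis, log scale) of each probe on each array, with the array's 75th percentile and its highest negative control spot on the right. Replicates 2 and 3 are brighter than replicates 1 and 4 for each probe but that of Pax5, whose symbols lie level between 292.7 and 300.3.

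Beyond the members, 2 of 11 measured genes of the B cell list were detected on all arrays (18.2%, beside 52.4% of all named genes), 4 on some arrays and 5 on none. Leaving out the members, which were chosen as detected, lowers such a share, here and for the other lineage lists. With the members kept, it was 4 of 13 (30.8%) for the B cell list. The antigen receptor chain gene Cd79b and the kinase gene Blk were not well above background on any of the arrays, and reached at most 1.08 and 0.43 times the highest negative control spot of the same array. Blk is regarded as a direct target of PAX5. Ebf1, a transcription factor that acts with PAX5 in early B cells, was detected by 4 of its 5 probes at -4.88 ± 0.10. No probe was matched to Cd79a or Ms4a1. Among 14 genes that work with the B cell receptor or with PAX5, most of which macrophages also use, 10 were detected (71.4%, beside 52.4% of all named genes). Among these were the kinase genes Syk (-1.80 ± 0.10), Btk (-2.52 ± 0.08) and Lyn (1.65 ± 0.04) and the phospholipase gene Plcg2 (-1.52 ± 0.08).

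Lck (NM_001100709), the T cell member, had processed signals of 105.6 on replicate 1, 149.2 on replicate 2, 168.7 on replicate 3 and 107.8 on replicate 4. Scaled, these were -4.06, -4.14, -4.08 and -4.12, a range of 0.08 on the log2 scale that placed no array apart from the rest. Its SD of 0.04 was low for its level, since 97.3% of the 2066 detected probes of similar level had an SD at least as large and their median was 0.14. The T cell receptor complex was not detected as a whole. Cd3e, Cd3g, Cd247 and Cd8a, which encode chains of the receptor complex and of its co-receptor, were not well above background on any of the arrays. Cd3d was detected at -4.94 ± 0.27 and Cd8b was detected on 2 arrays. In all, 3 of 15 measured T cell genes beyond Lck were detected on all arrays (20%, beside 52.4% of all named genes). Of 12 kinases, phosphatases, adaptors and surface proteins that share signalling with Lck, 9 were detected (75%, beside 52.4% of all named genes), and among its relatives in the Src family Fgr was at -0.01 ± 0.06 and Fyn at -2.59 ± 0.08, while Src was not well above background on any of the arrays.

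Of the 3 neutrophil members, Camp and Cxcr1 varied less between arrays than the median detected gene, and S100a8 varied more, with an SD of 0.12 against 0.0926. For its low level the spread of S100a8 was not large. Of the 2306 detected probes of similar level, 70.3% had an SD at least as large, and their median was 0.17. Camp (NM_001100724) encodes the precursor of cathelicidin, an antimicrobial peptide stored in neutrophil granules and also made by macrophages. Its processed signal was 2437 on replicate 1, 3699 on replicate 2, 3776 on replicate 3 and 2553 on replicate 4, which gave scaled levels of 0.47, 0.49, 0.40 and 0.45 and a mean of 0.45 ± 0.04. No array stood apart, and 87.5% of the 1372 detected probes of similar level had an SD at least as large.

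Cxcr1 (NM_019310) encodes a receptor for neutrophil-attracting CXC chemokines. Its signals of 386.2, 577.2, 602.5 and 380.5 on replicates 1 to 4 scaled to -2.18, -2.19, -2.25 and -2.30, with a mean of -2.23 ± 0.05. Its neighbour and close relative Cxcr2 was not well above background on any of the arrays, with a highest value of 0.62 times the highest negative control spot. Of the ligands, Cxcl2 was detected at 0.37 ± 0.07 and Cxcl1 was not. The list of chemokines, oxidase subunits and regulators that work with the neutrophil genes had 6 of 11 measured genes detected (54.5%, near the 52.4% of all named genes).

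S100a8 (NM_053822) encodes a calcium-binding protein that pairs with S100A9 to form calprotectin. Its signals were low, at 54.3 on replicate 1, 82.8 on replicate 2, 105.6 on replicate 3 and 65.7 on replicate 4. The scaled levels were -5.02, -4.99, -4.76 and -4.83, so replicates 3 and 4 were the higher ones, and the mean was -4.90 ± 0.12. S100a9, its partner and direct neighbour in the genome, was not well above background on any of the arrays and reached at most 0.59 times the highest negative control spot. The granule protein genes Elane, Ltf and Ngp were likewise not detected on any array, and no probe was matched to Mpo. Beyond the members, 2 of 12 measured neutrophil genes were detected (16.7%, beside 52.4% of all named genes). These were Lcn2 at 3.15 ± 0.11 and the granulocyte transcription factor gene Cebpe at -1.01 ± 0.12, both named after their values were seen.

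Vwf (NM_053889), which encodes the clotting glycoprotein von Willebrand factor, was measured by 2 probes that disagreed. The probe A_43_P21694 gave processed signals of 7113, 8614, 9492 and 7746 on replicates 1 to 4, and the probe A_64_P114913 gave 79.3, 103.9, 133.1 and 81.5. Both were detected everywhere. Their scaled levels were 1.88 ± 0.18 and -4.52 ± 0.10, and the difference between them was 6.40 ± 0.18 on the log2 scale, from 6.16 on replicate 3 to 6.57 on replicate 4. Among 1712 genes with several detected probes the median spread was 1.94, and 3.86% of these genes spread at least as far as Vwf. A mean over both probes, -1.32 ± 0.12, matches neither of them. The brighter probe was lower on replicates 2 and 3, at 1.71 and 1.73, than on replicates 1 and 4, at 2.02 and 2.05. The dimmer one did not divide in that way, with -4.66 on replicate 2 the lowest and -4.43 on replicate 3 the highest. Which part of the transcript each probe binds is not given in the sources used here.

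Pecam1 (NM_031591) encodes an adhesion molecule of endothelium, leukocytes and platelets. Its signals were 1093, 1387, 1405 and 996.1 on replicates 1 to 4. Scaled, it was highest on replicate 1 at -0.68, followed by -0.91 on replicate 4, -0.92 on replicate 2 and -1.03 on replicate 3, with a mean of -0.89 ± 0.14. Its level was thus lower on both brighter arrays than on both dimmer ones, as for Pax5 and the brighter Vwf probe, although replicates 2 and 4 differed by less than the SD. These were 3 of the 11 probes, beside 25.4% of all detected probes with that order, a share near the background.

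Cdh5 (NM_001107407) encodes VE-cadherin, the adhesion protein of endothelial junctions. It had the weakest signals of the 11 probes, at 33.6 on replicate 1, 64.2 on replicate 2, 56.3 on replicate 3 and 50.5 on replicate 4. The scaled levels were -5.71, -5.36, -5.67 and -5.21 and the mean was -5.49 ± 0.24. Replicates 2 and 4 were the higher pair. A spread of this size is common at its level, where 36.8% of 2426 detected probes had an SD at least as large. Catenins, which tie cadherins to the cytoskeleton, were detected, with Ctnnb1 at -2.63 ± 0.23, Ctnna1 at -1.20 ± 0.13 and Ctnnd1 at -4.13 ± 0.24, while Jup was not. Of the 13 measured adhesion and junction partners, 8 were detected (61.5%, beside 52.4%).

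Of the endothelial genes outside the members, 1 of 12, Eng, named after its value was seen, was detected on all arrays (8.33%, beside 52.4% of all named genes). The receptor genes Tek and Tie1, the tight junction gene Cldn5 and the sialomucin gene Emcn were not well above background on any of the arrays. The growth factor receptor genes Kdr and Flt1 were detected on 2 and 3 arrays, Flt1 by the brighter of its 2 probes alone.

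Epor (NM_017002), the erythroid member, gave signals of 515.3 on replicate 1, 747.0 on replicate 2, 793.8 on replicate 3 and 510.4 on replicate 4. Its scaled levels of -1.77, -1.82, -1.85 and -1.88 had a mean of -1.83 ± 0.05, and no array stood apart. Of 12 genes that carry, share or restrain its signal, 11 were detected (91.7%, beside 52.4% of all named genes), and they also serve the cytokine receptors of macrophages. Jak2 was at -4.14 ± 0.20, Stat5a at 2.28 ± 0.02 and Stat5b at -2.13 ± 0.18, while the feedback inhibitor gene Socs1 was not well above background. Of the genes that mark red cell precursors, the transcription factor gene Gata1, the haem synthesis gene Alas2 and the globin gene Hbb were not well above background on any of the arrays. Klf1 was detected on 3 arrays, and Hba-a1, which encodes alpha globin, was detected at -2.54 ± 0.27. Beyond Epor, 3 of 13 measured erythroid genes were detected on all arrays (23.1%, beside 52.4% of all named genes).

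**Figure D4:**
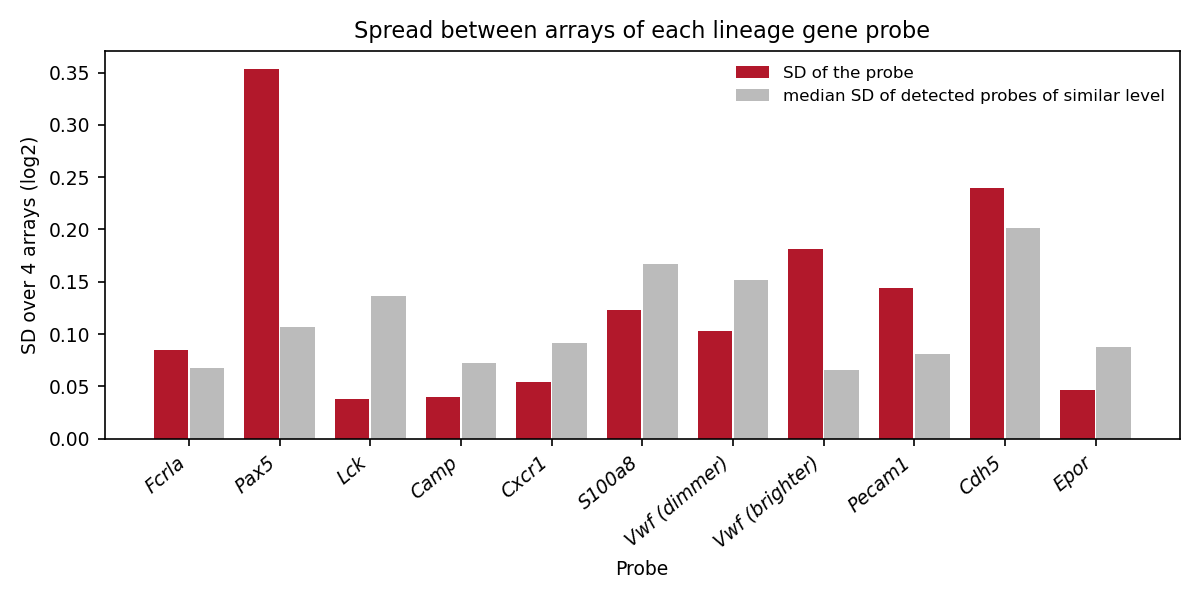
SD over 4 arrays of each of the 11 probes (dark bars, log2) beside the median SD of detected probes within 0.5 of its level (grey bars). Pax5 stands at 0.35 against 0.11, the brighter Vwf probe at 0.18 against 0.07 and Pecam1 at 0.14 against 0.08. Fcrla and Cdh5 are also above their grey bars, at 0.08 against 0.07 and 0.24 against 0.20. Lck, Camp, Cxcr1, S100a8, Epor and the dimmer Vwf probe stand below their grey bars.

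The arrays, 1 per culture, differed little in most of these genes. The median SD over the 10 genes was 0.101 on the log2 scale, beside 0.0926 over all 8685 detected named genes, with 5 of the 10 above and 5 below the latter. This order turned without replicate 1, at 0.0648 against 0.0824, and without replicate 2, at 0.0830 against 0.0922, as well as with the percentile taken over all probes, at 0.0946 against 0.0966. It also turned with no filter on dim probes, at 0.101 against 0.244, where all 16581 named genes entered the comparison. A span over 2-fold between arrays was found for 0 of the 10 genes and for 1.11% of all detected named genes. Pax5 came nearest, with a span of 0.73 on the log2 scale, followed by Cdh5 with 0.49. The span of Pax5 arose with the scaling, since its processed signals agreed within 1.03-fold before it.

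Over the 5 lineage lists, 11 of 63 measured genes beyond the members (17.5%, beside 52.4% of all named genes) were detected on all arrays, 10 on some arrays and 42 on none. The 11 were Ebf1, Fcrlb, Cd3d, Cd6, Cd28, Lcn2, Cebpe, Eng, Hba-a1, Nfe2 and Tfrc, named after their values were seen, and several of them, such as Tfrc, Lcn2 and Eng, are also expressed by macrophages. The share of 17.5% is lowered by leaving out the members, which were chosen as detected. With them kept, it was 30.8% for the B cell, 25.0% for the T cell and 33.3% for the neutrophil list. For the endothelial and erythroid lists it was 26.7% and 28.6%. Neither set of shares is free of that choice. The nearest genes outside the detection rule were Pou2af1, Flt1 and Klf1, of which Pou2af1 was named after its values were seen, and each was missed on replicate 1 alone. Their signals there were 15.7, 22.2 and 22.4, against 33.6 for Cdh5, the member nearest the limit. For Flt1 this holds for the brighter of its 2 probes, and the other was not well above background on any of the arrays.

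**Figure D5:**
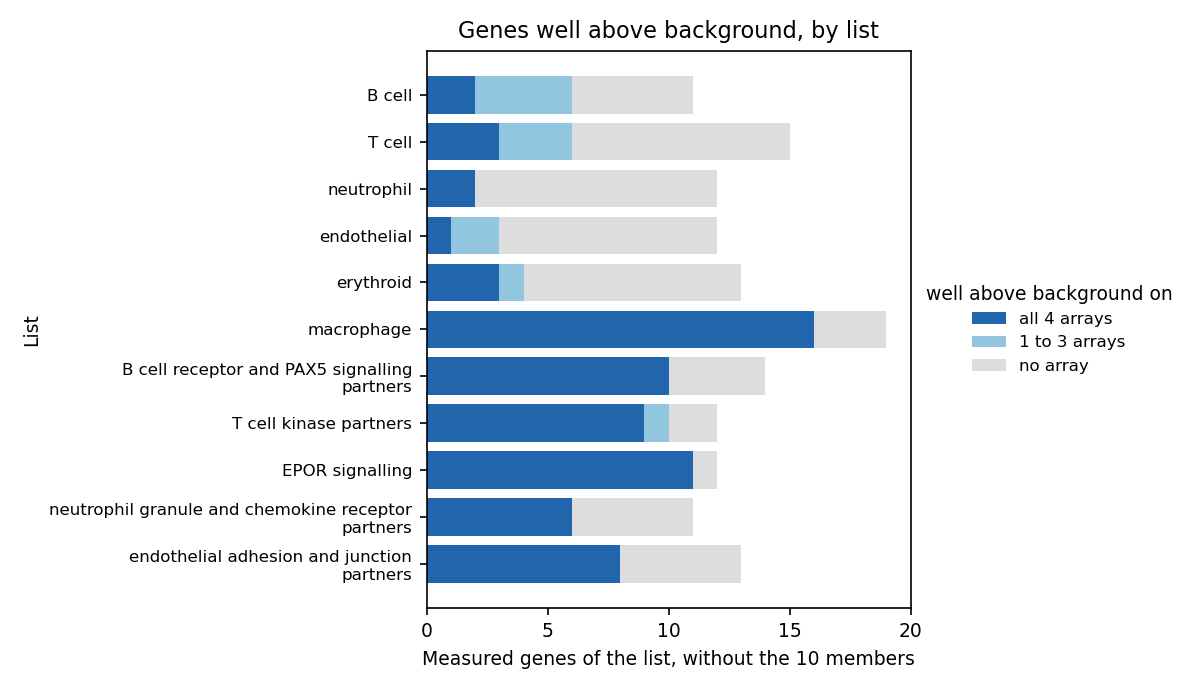
Number of measured genes of each list, without the 10 members (x axis), split by whether they were well above background on all 4 arrays, on some or on none. The 5 lineage lists hold 1 to 3 detected genes each, the macrophage list 16 of 19. Leaving out the members, which were chosen as detected, lowers the lineage counts. Of all named genes, 52.4% were detected on all arrays.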

How the data were processed

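Total RNA of 4 exposed NR8383 cultures was labelled with Cy3 and measured on 1-colour Agilent arrays, 1 array per culture. Per the file headers, the spots were read out with version 11.0.1.1 of Feature Extraction by Agilent. The deposited processed intensities had local background removed and a spatial trend corrected on each array by the authors' software, per the file headers, with no scaling across arrays. The raw median intensities were also used as deposited. Deposited flags of 0 or 1 gave detection, saturation and outlier spots.

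Control spots and outlier spots (427 to 714 per array) were left out, and spots of one probe were averaged as log2 signals. Detection required that most of its spots were well above background, which held for 40.8% to 43.7% of 45598 probes. Arrays were scaled to the 75th percentile of the 17807 probes that were detected on every array. The negative control spots of the array (296 to 301, outliers left out) gave its background. Probes were named by RefSeq accession through a rat gene table of assembly GRCr8, which named 21109 probes. The array design uses another build, and coordinates were left out. A gene with several probes was detected where any of them was, and the detected ones were averaged for its level.

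The genes named were the 10 members and the first 6 of each cell type list or the first 4 of each partner list beyond them, whatever their values. A few of these are not reported here, and other list genes are named in the text as chosen after their values were seen. Members, lists and rules were chosen with earlier results of these data known. With 1 group, no test between groups was run, and single arrays were set against the others by Dixon's ratio. The scripts were checked on simulated data. Normexp correction used limma 3.58.1 in R 4.3.3, the rest Python 3.11.15 with pandas 2.3.3 and numpy 2.4.6, and figures matplotlib 3.10.9. With 4 arrays, their number limits precision.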

Additional observations from a re-analysis of the deposited data

Results flagged for a closer look

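Single arrays were set against the other 3 in 34 series, the 11 probes and the detected named list genes, using the 95% critical value of Dixon's ratio, and 2 stood apart where chance alone gives about 1.7. Fcrla was lowest on replicate 1, at 1.13 against 1.29 to 1.30 on the others. Ctnna1, which encodes alpha catenin, was highest on replicate 4, at -1.01 against -1.27 to -1.25.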

How the results depend on the processing

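All 10 genes stayed detected under each detection rule tried, which were a looser flag, a signal above the highest negative control spot, detection on at least 3 arrays, all probes of a gene, and outlier spots kept, and without each replicate in turn. This carries no support, because the genes were chosen as detected. All 11 of their probes already met the main rule on all 4 arrays, and none of these rules is stricter for them. The count of other lineage genes detected, 11 of 63, was 18 with the looser flag, 15 above the highest negative control spot, 14 on at least 3 arrays, 8 where all probes of a gene had to be detected, and 11 to 14 without single replicates. The share of all named genes, 52.4% under the main rule, moved in the same order. It was 61.3%, 56.9%, 53.9% and 47.6% under those 4 rules, and 52.4% to 53.3% without single replicates. The median SD of the 10 genes ranged from 0.0648 to 0.110 without single replicates, the lowest being without replicate 1. Pax5 had the largest SD of the 10 under all 12 settings, 0.30 to 0.39. Scaled to the median or to the percentile over all probes, all 11 probe levels moved with the reference point, and with quantile normalization none moved by over 1 SD. With normexp correction of the raw signal, 6 of 11 probe levels moved by over 1 SD, among them the dim ones, such as Cdh5 at -4.17. That correction added an offset of 50 to every signal, which raises dim levels relative to bright ones. Part of the moves of the dim probes is therefore built in. Without replicate 1 and without replicate 4, 5 and 4 of the 11 levels moved by over 1 SD, and without replicate 2 or 3 none did. Leaving out an array also changed the set of detected probes behind the percentile, so these moves include a shift of the reference point. Fcrla, for example, was at 1.38 without replicate 1, above its main levels of 1.30, 1.29 and 1.30 on replicates 2, 3 and 4. The moves are therefore not read as a dependence of single genes on replicate 1 or 4. No paired analysis was possible because the samples form 1 group. Signal over background limits Cdh5, S100a8, Lck and the dimmer Vwf probe most.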
